A study of Mus musculus with 24 samples.

Results

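Messenger RNA was compared in thymocytes that carry both CD4 and CD8 (double-positive or DP cells), an immature stage of T cell development, between resting SapKO and resting wild-type (WT) cells, with 3 arrays in each group out of 24 arrays in the series. The 6 arrays were those whose labels name the genotype Sap KO or wild-type and the treatment Untreated, and each came from its own male mouse aged 8 weeks. The labels give the strain of all groups as Black 6J. Sap was read here as Elk4, also called SAP-1, and Elk as Elk1. DP cells were sorted with antibodies to CD4 and CD8, rested for 2 h in medium with serum and then kept for 30 min on uncoated plates. The labels also describe the same cells of the same mice on plates coated with anti-CD3, an antibody that engages the T cell receptor, and an ElkKO and a combined ElkSapKO line with 3 mice each. The sources used here do not say how the knockout alleles were made. The comparison asks what the loss of the Sap gene alters before any receptor stimulus.

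Elk4, Elk1 and Elk3 are the ternary complex factors. They are ETS-family proteins that sit on DNA next to serum response factor (Srf), at promoters that carry an ETS site beside a CArG box, the site of Srf. Phosphorylation by ERK kinases turns them into activators of immediate early genes such as Egr1 and Fos, and in thymocytes this route lies downstream of the T cell receptor. Unphosphorylated ternary complex factors can also occupy such promoters in resting cells.

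Values are log2 signals, so a difference of 1 is a 2-fold change. Genes were tested with limma in a fit of all 24 arrays, and rose, fell and called are used of genes with an adjusted p (Benjamini-Hochberg, over 18193 genes) under 0.05. A difference is given as SapKO minus WT ± standard error. This error comes from the fit of all 24 arrays, so it is not the spread of the 6 arrays alone. Xist, a transcript of female cells that males lack, was at 4.07 to 5.07 over the 24 arrays, and a level in this range was taken as background. In the 6 arrays the excess of 3′ over 5′ signal for Actb, a sign of degraded RNA, was 0.180 to 0.249 in WT and 0.166 to 0.240 in SapKO. Correlations over all genes were 0.994 to 0.997 within and 0.994 to 0.996 between the genotypes. The dap spike-in, added before labelling, lay at a low level in WT mice 1 and 2 and SapKO mice 1 and 3 and at a high level in the remaining WT and SapKO mouse, so each level held both genotypes. Among the other 18 arrays, untreated ElkSapKO mouse 2 gave the array with the widest relative log expression (interquartile range 0.783, against at most 0.259 in untreated WT and SapKO and 0.383 in all other arrays), and values of the ElkSapKO comparison are given with and without it where a call, a count or a gene is discussed.

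The cells carried the marks of DP thymocytes in both genotypes. Cd4, Cd8a, Rag1, which cuts the receptor genes, and Dntt, which adds bases at their joints, had mean levels of 11.5, 12.8, 13.1 and 12.6 in WT and 11.6, 12.96, 13.1 and 12.7 in SapKO. None of the 20 measured genes of the DP list was called.

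Of 18193 genes, 15 were called at rest, which is 0.0824%. The 11 genes that rose make up 0.0605% of all genes and the 4 that fell 0.022%. All 15 had groups that did not overlap, a separation seen in 9.13% of all genes. The genes were called on the same arrays, so this separation adds no support. The number called depends on the fit: a fit of the 6 arrays alone called 35 genes, one with array weights 42, and fits with 1 array left out 8 to 17. Ctse, Nmnat1 and Rbp7 rose by 3.59 to 4.22, Elk4 itself fell by 3.42, and the 11 others changed by 0.76 to 2.31 in size.

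**Figure D1:**
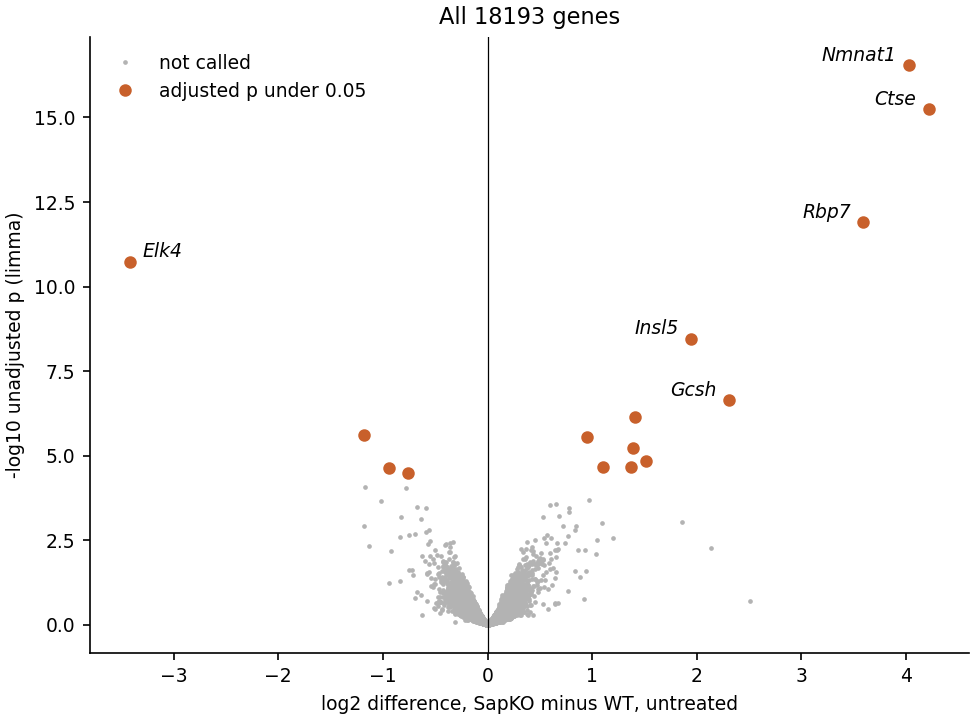
Difference between untreated SapKO and WT DP thymocytes (x axis, log2) against −log10 of the unadjusted limma p (y axis), 1 point per gene for 18193 genes. The 15 called genes are large orange points, 4 at the left and 11 at the right, and Ctse, Nmnat1, Rbp7 and Elk4 lie far outside the cloud of grey points.

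Elk4, the targeted gene, was at 10.39, 10.35 and 10.69 in WT mice 1 to 3 and at 7.01, 6.88 and 7.27 in SapKO mice 1 to 3. Every SapKO array lay below every WT array, by at least 3.08. The difference was −3.42 ± 0.268, a 10.7-fold lower signal (95% interval 7.29 to 15.7, adjusted p = 8.32e-08). Further Elk4 probe sets were less clear. One fell by 1.21 to the background range, 1 differed by −0.84 and 1, just above the Xist range in both genotypes (means of 5.13 and 5.15), differed by 0.02. Where the deletion lies relative to each probe set is not known here, and some signal of the brightest one remained in SapKO, above background. The other factors of the family did not pass the test. Elk1 differed by 0.06 ± 0.172 at a level near background (4.70 to 5.23), Elk3 by −0.01 ± 0.305 and Srf by −0.17 ± 0.189.

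Ncoa7, a nuclear receptor coactivator related to oxidation resistance proteins, was the gene with the largest fall after Elk4. Its promoters are shown here because 1 of them was the only one of 19 promoters of called genes that held an ETS-type motif together with a CArG box. The sequences are from RefSeq (GRCm38.p6), run from 250 bases before to 50 after an annotated start, and are written 5′ to 3′ on the strand of the gene. Capitals mark the motifs searched on both strands: GGAAGT, a core ETS motif; CCGGAAGT, a longer form that contains it; the CArG box; and GGGCGG, the GC box. The first Ncoa7 promoter is chr10:30655818-30656117 and the second chr10:30803277-30803576, both on the minus strand.
Ncoa7 promoter 1: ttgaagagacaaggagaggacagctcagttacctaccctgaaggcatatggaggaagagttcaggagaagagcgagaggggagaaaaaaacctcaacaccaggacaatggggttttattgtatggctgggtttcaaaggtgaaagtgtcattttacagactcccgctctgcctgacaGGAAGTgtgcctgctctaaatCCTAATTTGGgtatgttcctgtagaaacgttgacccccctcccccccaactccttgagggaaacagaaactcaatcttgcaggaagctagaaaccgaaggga
Ncoa7 promoter 2: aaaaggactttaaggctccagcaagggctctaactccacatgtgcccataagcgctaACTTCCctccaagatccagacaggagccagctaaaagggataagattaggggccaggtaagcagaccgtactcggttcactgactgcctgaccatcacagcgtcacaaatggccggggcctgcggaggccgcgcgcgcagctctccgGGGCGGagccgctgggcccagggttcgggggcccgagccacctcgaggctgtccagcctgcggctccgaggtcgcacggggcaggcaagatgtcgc
In promoter 1, GGAAGT starts at base 178 and the CArG box at base 199 of the 300. A CArG box was found in 1.36% of the 18009 promoters of genes on the array, and GGAAGT in 25.4%.

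The Ncoa7 signal was 8.29, 8.13 and 8.51 in WT and 7.15, 7.12 and 7.12 in SapKO. The 3 SapKO mice were nearly equal and all lay below WT. The difference was −1.18 ± 0.185, a 2.26-fold fall (interval 1.73 to 2.95, adjusted p = 0.00567). The call was lost without WT mouse 3 (adjusted p = 0.0754). A second Ncoa7 probe set was near background and differed by −0.08, and with the mean of both probe sets in place of the brighter one the difference was −0.63 and not called.

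Nnt and Usb1 were the other genes that fell. Nnt, the mitochondrial nicotinamide nucleotide transhydrogenase, whose gene is known to differ between substrains of black laboratory mice, was at 9.33, 9.42 and 9.20 in WT and 8.45, 8.32 and 8.35 in SapKO. The difference was −0.94 ± 0.175 (adjusted p = 0.0293). Usb1, a nuclease that trims the end of a spliceosomal small nuclear RNA, was at 7.30, 7.51 and 7.34 in WT and 6.59, 6.56 and 6.73 in SapKO, a difference of −0.76 ± 0.144 (adjusted p = 0.0384). Both genes had separate groups, but neither call held when any 1 of the 6 arrays was left out, with adjusted p of 0.102 to 0.227 for Nnt and 0.111 to 0.319 for Usb1.

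Promoters of 12 of the 15 called genes were in the RefSeq table, 19 in all. GGAAGT was in all 6 promoters of the 3 matched genes that fell, 3 of them promoters of the targeted gene Elk4 and the other 3 of Ncoa7 and Usb1, and in 3 of 13 promoters of the 9 matched genes that rose (23.1%), against 25.4% of promoters of genes on the array and 23.8% of all 32851. Promoters of 1 gene overlap in part, so they are not independent. CCGGAAGT was in 2 of 6 and 2 of 13, against 5.86% on the array. The matching promoters of Elk4 (chr1:132007370-132007669, plus strand), Usb1 (chr8:95332034-95332333, plus strand) and Nmnat1 (chr4:149485123-149485422, minus strand) are 3 of the 4 promoters of called genes that hold the longer form, and the last is a second Nmnat1 promoter that overlaps the one shown.
Elk4: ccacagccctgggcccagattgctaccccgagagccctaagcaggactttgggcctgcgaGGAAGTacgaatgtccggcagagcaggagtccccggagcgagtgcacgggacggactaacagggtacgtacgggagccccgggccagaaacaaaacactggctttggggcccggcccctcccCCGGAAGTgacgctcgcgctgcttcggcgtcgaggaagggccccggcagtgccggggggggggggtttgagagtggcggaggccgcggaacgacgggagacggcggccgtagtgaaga
Usb1: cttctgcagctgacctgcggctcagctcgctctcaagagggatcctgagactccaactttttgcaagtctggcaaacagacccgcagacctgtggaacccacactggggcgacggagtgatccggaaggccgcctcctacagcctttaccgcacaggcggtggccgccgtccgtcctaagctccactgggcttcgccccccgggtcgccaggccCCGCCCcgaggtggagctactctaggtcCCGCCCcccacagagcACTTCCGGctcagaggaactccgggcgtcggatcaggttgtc
Nmnat1: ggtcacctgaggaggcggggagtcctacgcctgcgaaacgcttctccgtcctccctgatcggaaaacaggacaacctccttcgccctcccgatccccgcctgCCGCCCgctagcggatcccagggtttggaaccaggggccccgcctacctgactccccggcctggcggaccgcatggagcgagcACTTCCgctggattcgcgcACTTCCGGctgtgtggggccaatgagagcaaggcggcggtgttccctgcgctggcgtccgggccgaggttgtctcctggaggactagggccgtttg
The GC box was in 4 of 6 and 11 of 13 promoters, against 52.4% on the array. These are matches of letters, and no binding was measured.

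The gene with the largest rise was Ctse, cathepsin E, an aspartic protease of the endosome. It was at 7.56, 7.37 and 7.84 in WT and at 11.80, 11.81 and 11.81 in SapKO. The difference was 4.22 ± 0.195, an 18.6-fold higher signal (interval 14.05 to 24.6, adjusted p = 5.07e-12). A second Ctse probe set went the other way, at 9.18, 10.46 and 9.46 in WT and 8.39, 8.00 and 8.21 in SapKO. Its groups were also separate, with a difference of −1.50 ± 0.529 that was not called, and with the mean of both probe sets Ctse differed by 1.36 and was not called (adjusted p = 0.184). The 2 probe sets of Ctse thus disagree in direction.

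Nmnat1 makes the coenzyme NAD in the nucleus. Its signal was 6.52, 6.41 and 6.27 in WT and 10.54, 10.30 and 10.45 in SapKO, a rise of 4.03 ± 0.161 or 16.3-fold (interval 12.96 to 20.6, adjusted p = 5.03e-13). A second Nmnat1 probe set rose by 4.19. Rbp7, a cellular retinol-binding protein, was at background in WT (4.41, 4.38 and 4.36) and at 7.96, 7.64 and 8.32 in SapKO. It rose by 3.59 ± 0.244, at least 7.49-fold over the highest Xist signal (adjusted p = 7.34e-09). Nmnat1 and Rbp7 are neighbours on chromosome 4, with no other measured gene between them.

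Gcsh and Cmc2 encode mitochondrial proteins, the carrier protein of the glycine cleavage system and a factor needed for cytochrome c oxidase. Gcsh was at 7.01, 6.71 and 7.07 in WT and 9.20, 9.27 and 9.24 in SapKO, a rise of 2.31 ± 0.310 (adjusted p = 0.000706). Cmc2 was at 8.59, 8.50 and 8.59 in WT and 9.94, 10.00 and 9.92 in SapKO, a rise of 1.39 ± 0.233 (adjusted p = 0.0104). Within each genotype both genes varied far less than they differed between genotypes. Of 3 further Cmc2 probe sets, 2 rose by 0.94 and 1.46 and the last was at background. The Cmc2 call was lost when any 1 of the 6 arrays was left out, with adjusted p of 0.0559 to 0.0778.

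Insl5, a peptide hormone of the insulin and relaxin family, was at 8.66, 8.91 and 8.95 in WT and 10.73, 10.68 and 10.94 in SapKO, a 3.85-fold rise (1.95 ± 0.203, adjusted p = 1.25e-05). The membrane protein Tmem181a was at 5.71, 5.48 and 5.75 in WT and 7.06, 6.94 and 7.15 in SapKO, a rise of 1.40 ± 0.203 (adjusted p = 0.00185). Mgat5, the enzyme that branches N-glycans on T cell receptors, was at 9.20, 9.16 and 9.27 in WT and 10.15, 10.08 and 10.27 in SapKO. In each of these genes the lowest SapKO mouse was well above the highest WT mouse. Mgat5 rose by 0.95 ± 0.152 (adjusted p = 0.00576), a second Mgat5 probe set rose by 1.18 and the last differed by 0.35. The Mgat5 call was lost without WT mouse 2 or SapKO mouse 3, with an adjusted p of up to 0.0644.

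The 3 remaining genes started from low signals or varied more. Slc41a1, a magnesium transporter, was at 7.46, 7.21 and 6.75 in WT and 8.45, 8.02 and 8.24 in SapKO (1.10 ± 0.203, adjusted p = 0.0293). Usp18, a protease that removes the ubiquitin-like Isg15 and dampens interferon signalling, was at background in WT (4.996, 4.38 and 4.76) and at 6.10, 5.99 and 6.15 in SapKO. It rose at least 2.01-fold (1.37 ± 0.253, adjusted p = 0.0293). Tmem267, a membrane protein, was at 5.10, 4.83 and 4.89 in WT and 6.91, 5.87 and 6.59 in SapKO, a rise of at least 2.60-fold (1.52 ± 0.272, adjusted p = 0.0236). For each of these 3 genes the call held in only 1 of the 6 fits that left out an array, the one without WT mouse 1 for Slc41a1 and Usp18 and without SapKO mouse 2 for Tmem267. The adjusted p ranged from 0.0285 to 0.406 for Slc41a1, from 0.0491 to 0.315 for Usp18 and from 0.00621 to 0.319 for Tmem267. Within the low and the high dap level all 15 genes kept their direction, which could not be otherwise since their groups were separate. Between the levels the values differed most for Tmem267 (1.79 at the low and 0.983 at the high level).

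**Figure D2:**
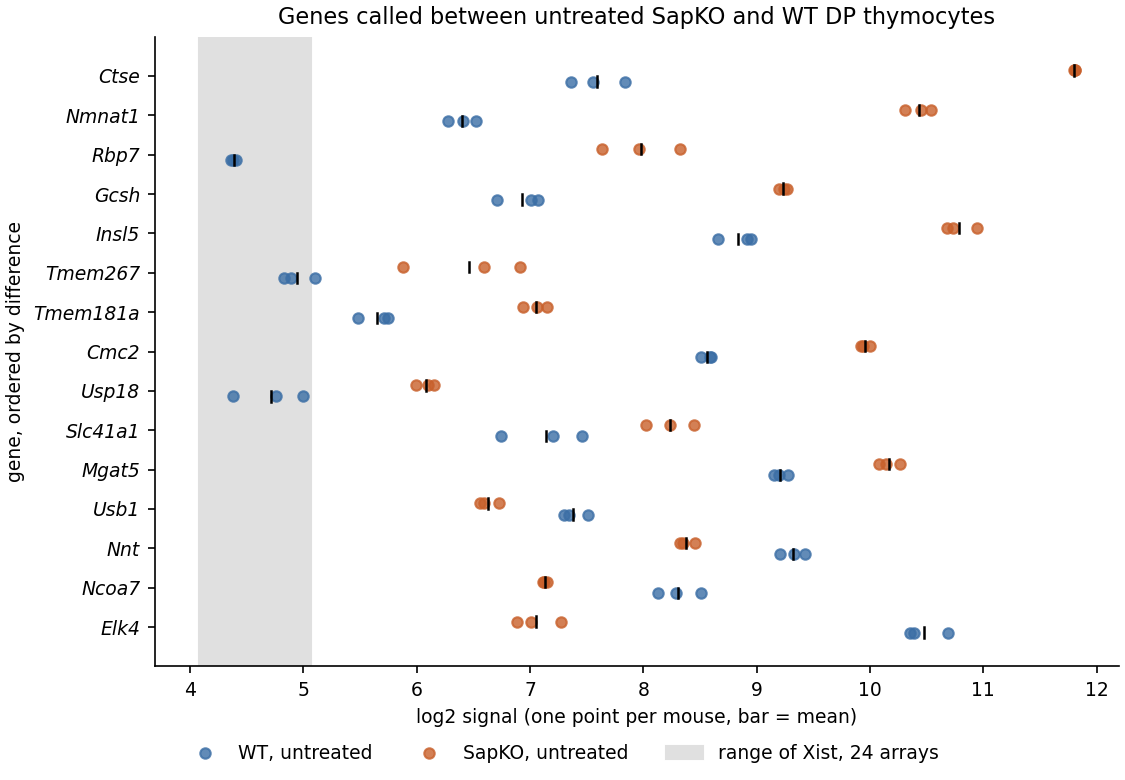
Log2 signal (x axis) of the 15 called genes (y axis) in each untreated WT (blue) and SapKO (orange) mouse, with a bar at the mean of 3 and a grey band at the range of Xist over 24 arrays. No blue point overlaps an orange point within a gene, and Rbp7 and Usp18 lie in the grey band in WT.

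The genes nearest to the threshold outside it were Glipr1 (−1.18 ± 0.243) and Lars2 (−0.78 ± 0.162), both with an adjusted p of 0.0947, and Ifi27l2a (0.97 ± 0.216, adjusted p = 0.203). Usb1, at 0.0384, was the last gene inside. An unadjusted p under 0.05 was found for 301 genes, or 1.65% of all, the called ones included. That share is lower than such a threshold gives when no gene differs, and the reason was not tested. A gene not called here is not shown to be unchanged. In fits of fewer arrays or with array weights more genes passed, and 7 were called in each of 4 such fits but not in the one used here. The 6 of these with a gene name other than a clone symbol, chosen after their values were seen, were Wdfy1 (−1.18), Glipr1, Ube2t (−1.02), Mdm1 (0.84), Cd79a (1.04) and Pttg1 (1.10).

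With every probe set tested on its own, 40 of 45037 probe sets were called (0.0888%), 20 of them for the 15 genes.

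Some of the called genes lay close together on the chromosomes. Gene order was taken from the RefSeq table of GRCm38.p6, without coordinates since the array values name no build, and counting genes between called genes was a description added after the values were seen. Of the 15 genes, 12 lay on chromosomes 1, 4, 8 and 13, which hold 976, 1019, 867 and 608 of the 16465 genes with a position. Another called gene lay within 10 measured genes for 9 of the 15. This closeness was not tested. On chromosome 1, Ctse and Slc41a1 were 7 and 4 steps before Elk4, and Mgat5 was 39 steps before it. Nnt and Tmem267 were 3 steps apart on chromosome 13, Cmc2 and Gcsh 4 steps on chromosome 8 and Rbp7 and Nmnat1 were adjacent on chromosome 4. The genes of a group did not all move 1 way: Nnt fell and Tmem267 rose, and Ctse and Slc41a1 rose beside Elk4. Usb1 was 162 steps or more and Insl5 513 steps or more from the other called genes of their chromosomes, and Ncoa7, Tmem181a and Usp18 were the only called genes on chromosomes 10, 17 and 6.

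Around Elk4, the 25 measured genes on each side held 2 called genes of 50, or 4%, against 0.0911% of the 16465 genes with a position. Groups were separate for 12 of the 50 (24%), against 9.13% of the positioned genes, and 4 of 50 (8%) had an unadjusted p under 0.05, against 1.67%. The median difference of the 50 was −0.00. Rab7b, a small GTPase that lies between Ctse and Slc41a1, was at 4.31, 4.15 and 4.46 in WT and 5.15, 4.71 and 5.22 in SapKO (0.72 ± 0.194, adjusted p = 0.655). Its groups were separate, but WT was at background. Dstyk, a kinase 7 steps after Elk4, differed by −0.56 ± 0.155 (adjusted p = 0.821). Ube2t, a ubiquitin-conjugating enzyme of DNA repair 40 steps after Elk4, was at 8.83, 8.59 and 8.61 in WT and 7.84, 7.69 and 7.43 in SapKO (−1.02 ± 0.229, adjusted p = 0.203). Rab7b, Dstyk and Ube2t were named after their values were seen. Whether the lines differ in sequence near these genes was not tested.

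**Figure D3:**
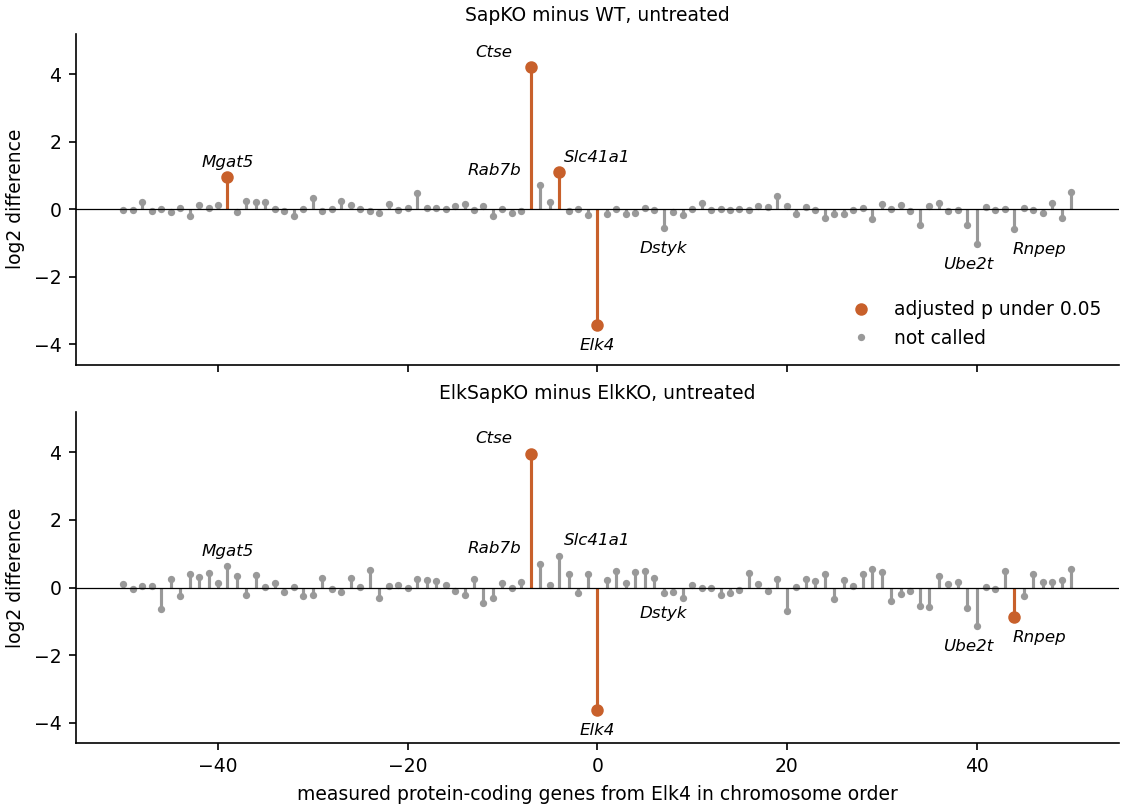
Log2 difference (y axis) of the 50 measured protein-coding genes on each side of Elk4, in chromosome order (x axis, genes from Elk4), for SapKO minus WT (top) and, in other mice, ElkSapKO minus ElkKO (bottom), all untreated. Ctse 7 genes before Elk4 is high and Elk4 low in both panels, while most genes lie near 0.

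The anti-CD3 arrays of the same mice gave a second measure of the genotype difference on separate RNA. All 15 genes differed in the same direction there, and 11 were called, against 13 of 18193 genes (0.0715%) called in that comparison. Ctse differed by 4.42 after anti-CD3, Nmnat1 by 3.93, Rbp7 by 3.47, Gcsh by 2.23 and Insl5 by 2.12, and their changes from the resting difference were between −0.12 and 0.20. Nnt (−0.89), Usb1 (−0.74), Slc41a1 (1.02) and Usp18 (1.26) did not pass the test, with adjusted p of 0.0540 to 0.0633.

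For Ncoa7 the difference was larger after anti-CD3. Its signal was then 9.55, 9.63 and 9.59 in WT and 7.04, 7.28 and 6.91 in SapKO, so that WT and SapKO were further apart than at rest, by −2.52 against −1.18. From the untreated to the stimulated array of each mouse it rose by 1.26, 1.504 and 1.08 in WT and moved by −0.12, 0.16 and −0.21 in SapKO. ElkKO mice were like WT, with 1.28, 0.68 and 1.04. ElkSapKO mice moved by −0.02, 0.93 and −0.27, where the rise was that of mouse 2, whose untreated array had the widest relative log expression. The change of the difference, −1.34 ± 0.262, was not called with limma over all genes (adjusted p = 0.81). It passed with the 12 WT and SapKO arrays alone (adjusted p = 0.0223), with weights for the arrays (0.000744) and when the array of untreated ElkSapKO mouse 2 was left out (0.0206). It did not pass in the other settings, with an adjusted p of 0.308 with the mouse as a random block, and with the mean of both Ncoa7 probe sets the change was −0.57 (adjusted p = 0.999996). In that test of a changed difference 0 of 18193 genes were called (0%), 143 had an unadjusted p under 0.05 (0.786%), and among the 15 genes Ncoa7 alone did. This share too is lower than the threshold gives when no gene differs. When each probe set was tested on its own, 1 was called, which was not one of Ncoa7 (adjusted p = 0.999973 for its brighter probe set).

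The comparison of ElkSapKO with ElkKO, untreated, shares no array and no mouse with SapKO against WT. It sets cells without Sap and Elk against cells of another line without Elk. Loss of Sap and other differences between these lines cannot be told apart here. The ElkKO and ElkSapKO arrays differed in quality from those of WT and SapKO. The Actb excess of 3′ over 5′ signal was 0.403 to 0.654 in untreated ElkKO and 0.579 to 0.808 in untreated ElkSapKO, above all 6 untreated WT and SapKO arrays, and dap was at its high level in all of them (9.15 to 9.63). The part of these measures in differences that involve ElkKO or ElkSapKO was not tested. Of the 15 genes, 13 differed in the same direction and 6 were called, against 21 of 18193 (0.115%). These were Elk4 (−3.63), Ncoa7 (−1.44, adjusted p = 0.000419), Insl5 (1.61), Rbp7 (1.31, adjusted p = 0.0339), Nmnat1 (2.70) and Ctse (3.96). Without the untreated array of ElkSapKO mouse 2, 12 kept the direction and 5 were called. Rbp7 was the gene that lost its call (1.16, adjusted p = 0.105), and Ncoa7 differed by −1.18.

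Ncoa7 was at 8.16, 8.36 and 8.43 in ElkKO and at 6.92, 6.34 and 7.36 in ElkSapKO. Ctse was at 7.51, 7.92 and 7.71 in ElkKO and at 11.39, 11.56 and 12.06 in ElkSapKO. For both genes ElkKO mice lay at the level of WT and ElkSapKO mice at that of SapKO. Slc41a1 (0.94) and Mgat5 (0.63) also had the sign of the resting comparison without passing the test, with adjusted p of 0.0767 and 0.126. Leaving out ElkSapKO mouse 2, untreated, gave 0.90 (adjusted p = 0.171) for Slc41a1 and 0.70 (adjusted p = 0.127) for Mgat5. Among the neighbours of Elk4 and chosen after its values were seen, Rnpep, an aminopeptidase 44 steps after Elk4, was called in ElkSapKO minus ElkKO (−0.88, adjusted p = 0.0497) but not without that array (−0.98, adjusted p = 0.0627). In SapKO minus WT Rnpep differed by −0.57 ± 0.176 and was not called. Ube2t differed by −1.13 (adjusted p = 0.0503) between ElkSapKO and ElkKO, and by −0.82 (adjusted p = 0.171) without that array.

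Other genes differed in size or direction between the 2 Sap comparisons. Gcsh was at 9.14, 9.24 and 8.98 in ElkKO, well above WT, and at 8.39, 8.64 and 7.22 in ElkSapKO. It was therefore lower in ElkSapKO than in ElkKO by 1.04, with 1 ElkSapKO mouse near WT, a difference that was not called (adjusted p = 0.188). Usp18 differed by −0.52 (adjusted p = 0.3). Without the untreated array of ElkSapKO mouse 2, Gcsh differed by −1.31 (adjusted p = 0.148) and Usp18 by −0.42 (adjusted p = 0.793). Rbp7 and Nmnat1 were between WT and SapKO in ElkSapKO mice, at 5.65, 6.18 and 5.82 for Rbp7 and at 8.63, 9.30 and 8.79 for Nmnat1. The test of the difference between the 2 comparisons, added after the values were seen, called Gcsh (3.34, adjusted p = 0.00289), Rbp7 (2.28, adjusted p = 0.0126) and Nmnat1 (1.33, adjusted p = 0.0493), which were 3 of 18193 genes (0.0165%). Without the untreated array of ElkSapKO mouse 2 these values were 3.62, 2.43 and 1.52, and Cmc2 was called too (1.62, adjusted p = 0.00619). The genes called at rest were chosen with the same untreated SapKO and WT arrays, so nothing is read from how many of them were called here.

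**Figure D4:**
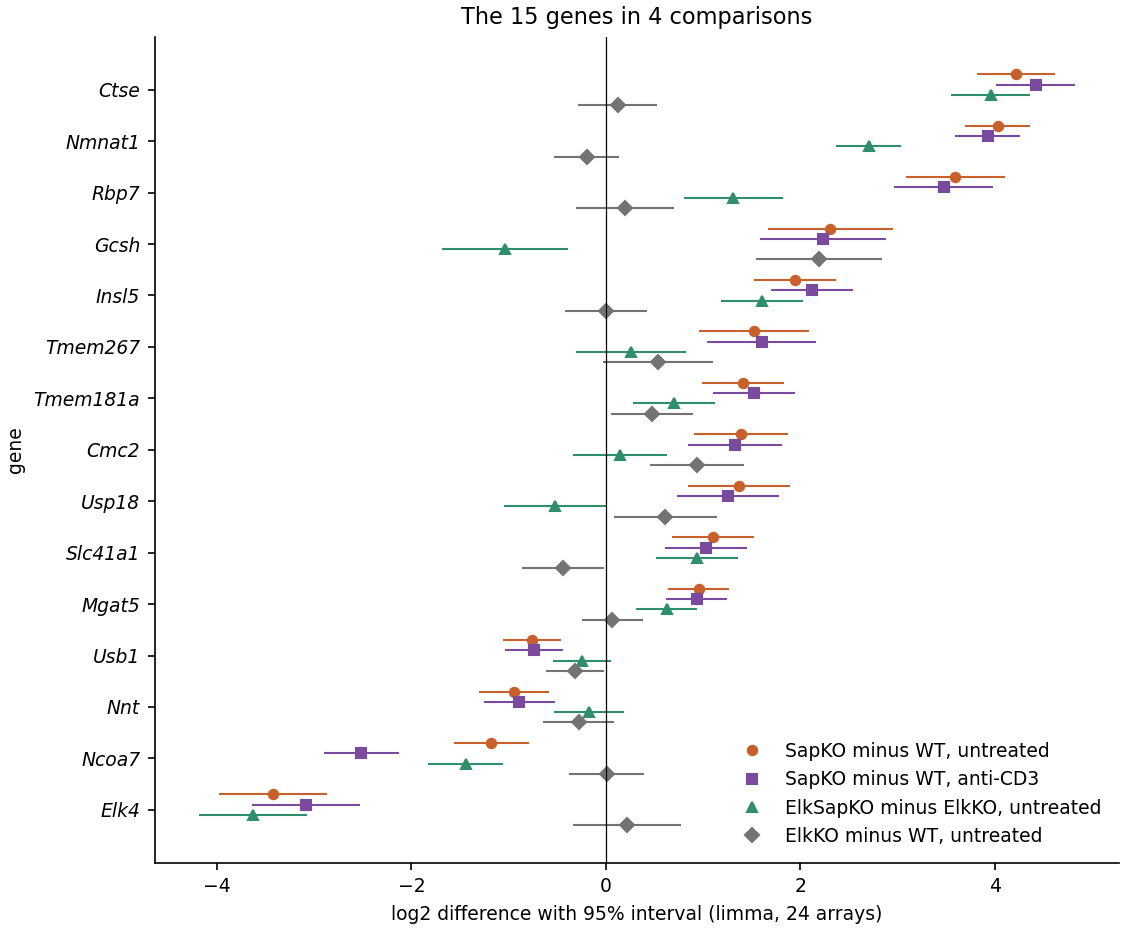
Log2 difference (x axis) with its 95% interval from limma for the 15 genes (y axis) in 4 comparisons, marked by colour and symbol. Ncoa7 lies further left after anti-CD3 (purple squares, −2.52) than at rest, and Gcsh lies right of 0 in ElkKO minus WT (grey diamonds, 2.19) and left of 0 in ElkSapKO minus ElkKO (green triangles, −1.04).

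SapKO and ElkKO cells at rest are set side by side here. Both are compared with the same WT arrays, so likeness between them is not independent. The quality measures of the ElkKO arrays given above apply here too. In ElkKO minus WT, Gcsh was the only one of the 15 genes called (2.19, adjusted p = 0.00316), against 18 of 18193 (0.0989%). Cmc2 was at 9.44, 9.53 and 9.53 in ElkKO, above all WT and below all SapKO mice, with a difference from WT of 0.94 (adjusted p = 0.147). Elk4 (0.21), Ncoa7 (0.01), Insl5 (0.00), Mgat5 (0.07), Ctse (0.12), Rbp7 (0.20) and Nmnat1 (−0.20) did not pass the test in ElkKO. Usp18 (0.61), Tmem267 (0.54), Tmem181a (0.47), Usb1 (−0.31) and Nnt (−0.28) did not pass either, but had the sign of SapKO minus WT. Slc41a1 (−0.45) had the opposite sign and did not pass. In SapKO minus ElkKO, 8 of the 15 were called, against 42 of 18193 (0.231%). The 15 genes were chosen with the same SapKO arrays, so nothing is read from this count. The 8 were Elk4 (−3.64), Ncoa7 (−1.18), Mgat5 (0.89), Slc41a1 (1.54), Insl5 (1.94), Rbp7 (3.40), Nmnat1 (4.23) and Ctse (4.09). Gcsh differed by 0.12 between these knockouts.

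Most lists of related genes had small median differences. Over 26 lists with 416 measured genes, written from general knowledge, Elk4 and Usp18 were the only members called. The median difference of all list genes was −0.00, against −0.01 for all genes. Groups were separate for 57 of the 416 (13.7%) and 21 had an unadjusted p under 0.05 (5.05%), against 9.13% and 1.65% of all genes. In some lists with no call the members with the smallest p are named, and in the rest they are not. Others named for their role or as the ends of a range were chosen after their values were seen.

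Of 24 immediate early genes that ternary complex factors drive with Srf, none was called at rest and none had an unadjusted p under 0.05. Their median difference was −0.08, with 8 above 0, against −0.01 for all genes. In 9 of the 24 the mean signal was within or below the Xist range, where a fall could not be seen. Fos, a partner of Jun in AP-1, was at 7.37, 6.03 and 6.10 in WT and 5.98, 6.93 and 5.95 in SapKO, and Egr1, a zinc finger factor, at 6.93, 6.33 and 6.44 against 6.47, 6.89 and 6.26. The groups overlapped in both genes, with WT mouse 1 and SapKO mouse 2 high. The same 2 arrays were high in heat shock genes, named here after their values were seen. Hspa1a, an inducible chaperone, was at 9.65, 5.68 and 4.34 in WT and 6.09, 9.11 and 3.53 in SapKO, and Hsph1, a co-chaperone, at 10.002, 8.47 and 8.36 against 8.66, 9.65 and 7.96. The part of this in the Fos and Egr1 values was not tested. Egr2 had the highest difference (0.62 ± 0.322), Ier2 followed (0.47 ± 0.242) and Fosl2 had the lowest (−0.46 ± 0.351). Most Egr2 and Fosl2 signals lay within or below the Xist range, and the groups of both genes overlapped. The cytoskeletal genes that Srf controls with myocardin-related factors had a median of −0.04 over 24 genes, from −0.40 for Vcl to 0.21 for Tagln2, with none called.

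The genes of the Egr, Nab and Id axis, through which Egr factors act on helix-loop-helix proteins, had a median of −0.02 over 11 members. Nab2, a corepressor of Egr factors, was at 6.23, 5.87 and 5.51 in WT and 5.19, 5.05 and 5.24 in SapKO. These groups were separate, but the difference of −0.71 ± 0.313 had an unadjusted p of 0.034 in limma and was not called. ERK cascade genes, ERK feedback regulators and T cell receptor signalling genes had medians of −0.00, −0.01 and −0.01 over 12, 16 and 24 members, with none called. Dusp4, a phosphatase of ERK kinases, differed by 0.43 ± 0.226 and Cd5, which tunes receptor signalling, by −0.38 ± 0.274.

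Among genes of thymocyte maturation, none of 28 was called and 8 were above 0. Cd2, an adhesion receptor, differed by 0.33 ± 0.141 and H2-D1, an MHC class I chain, by 0.43 ± 0.202. Il7r, the receptor for interleukin 7, was at 8.10, 7.73 and 7.66 in WT and 6.98, 7.48 and 6.996 in SapKO (−0.67 ± 0.397). S1pr1, the receptor for exit from the thymus, was at 6.77, 6.33 and 6.40 against 5.94, 5.88 and 5.94 (−0.58 ± 0.250). All 4 had separate groups, as did 7 of the 28 genes and 9.13% of all genes, and none was called. Cd69, an activation marker, differed by 0.65 ± 0.544 with overlapping groups. Of the 20 DP genes, 18 were above 0, against 8257 of 18193 genes, with a median of 0.09 and Cxcr4, a chemokine receptor, highest (0.33 ± 0.214).

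Interferon response genes had a median of 0.15 over 21 members, 18 of them above 0 and 7 with separate groups. Usp18 was the only one called. Over all 18193 genes, 8257 were above 0 and 9.13% had separate groups. Oas1a, a sensor of viral RNA, was at 5.80, 5.82 and 5.81 in WT and 6.29, 6.28 and 6.25 in SapKO (0.46 ± 0.180), and Ifi27 differed by 0.48 ± 0.185. Of genes that interferon induces strongly, Ifit1 was below the Xist range in all 6 arrays, so its difference of 0.00 ± 0.160 is one of background, and Rsad2 differed by 0.05 ± 0.161 and Irf7 by 0.15 ± 0.239.

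B cell markers were the list with the highest median. It was 0.43 over 14 genes, 13 of them above 0, 7 with separate groups and 4 with an unadjusted p under 0.05, and none was called. Over all 18193 genes, 8257 were above 0, 9.13% had separate groups and 1.65% had an unadjusted p under 0.05. Ms4a1, the B cell surface protein CD20, was at 3.50, 4.19 and 3.72 in WT and 4.69, 5.13 and 4.73 in SapKO (1.05 ± 0.314). Cd79a, a chain of the B cell receptor, was at 4.42, 4.93 and 4.33 against 5.55, 5.73 and 5.51 (1.04 ± 0.356), and Blnk, an adaptor of that receptor, differed by 0.66 ± 0.278. The B cell factors Pax5 and Ebf1 were at background in both genotypes and differed by 0.00 and −0.09. The median level of the list was 4.56 to 4.87 in WT and 5.32 to 5.54 in SapKO mice, and 7 of the 14 members lay at background. In the fit of the 6 arrays alone Cd79a (adjusted p = 0.0164) and Ms4a1 (0.0473) were called. In sorted bulk RNA, more cells of a type and more RNA per cell cannot be told apart, and the part of B cell transcripts in the changes of other genes was not tested.

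Markers of macrophages and dendritic cells, granulocytes, erythroid cells, and epithelium and stroma had medians of 0.01, −0.12, −0.01 and −0.00, with none called. Mature and innate T cell markers had a median of 0.04 over 17 genes. Klrd1, a receptor of natural killer cells, was in this list at 3.96, 4.21 and 4.01 in WT and 4.795, 5.05 and 4.39 in SapKO (0.68 ± 0.170), all near background, and was not called. Lists for cell cycle, oxidative phosphorylation, glycolysis, stress, survival, NFAT, NF-kB, migration, double-negative thymocytes and other ETS factors had medians between −0.02 and 0.09 with no member called. Spib, an ETS factor of lymphoid and plasmacytoid cells, had the highest difference among the ETS factors (0.62 ± 0.250, groups separate).

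**Figure D5:**
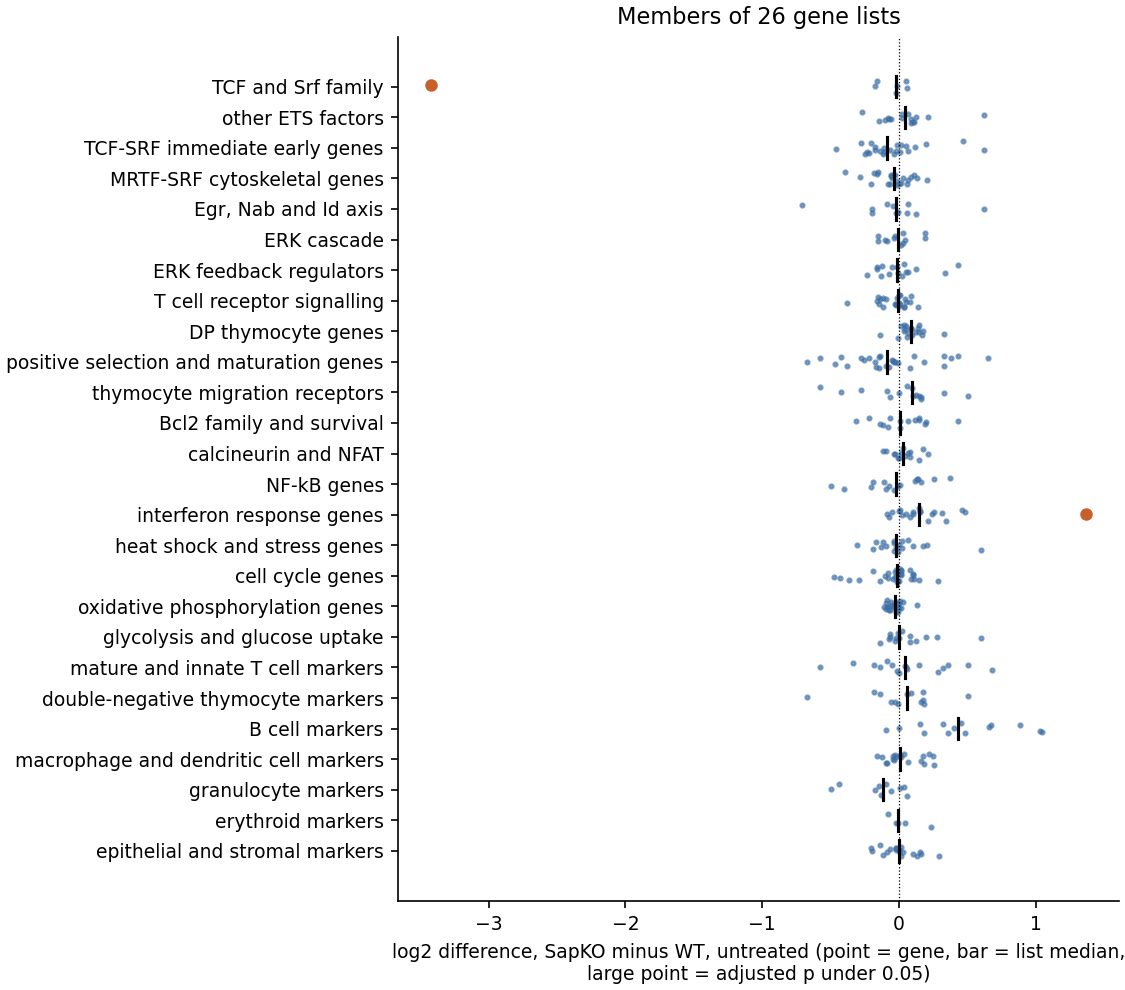
Log2 difference, SapKO minus WT, untreated (x axis), of each measured member of 26 gene lists (rows), with a bar at the list median and large orange points for called genes. Most members lie within 0.5 of 0, Elk4 and Usp18 are the called members, and the bar of the B cell markers is at 0.43.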

How the data were processed

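The authors deposited log2 values for 45101 probe sets of the Mouse430_2 array, made by RMA with the affy package, per the submitters' processing notes. RMA gives every array the same overall distribution, so a change shared by most genes would not be seen. Package versions and the build were not given in the sources used here. After 64 control probe sets, 34945 had a single symbol in GEO's platform annotation, 932 several and 9160 none. The brightest single-symbol probe set stood for each of 18193 genes, of which 18029 matched a RefSeq gene table (GRCm38.p6).

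Genes were tested with limma 3.58.1 (R 4.3.3), with a mean for each of 8 groups of 3 arrays and 16 residual degrees of freedom, on the untreated and anti-CD3 (30 min) cells of 12 mice. Two-sided p values were adjusted over all genes of a comparison (Benjamini-Hochberg). The number of arrays limits the precision. The fit was tested on simulated data. "At least" folds set the brighter mean against the mean over the dim arrays of the higher of the highest Xist signal and the array's own value. Named were Elk4, Elk1, Elk3, Srf, called genes with separate groups (up to 15 each way), called members of lists and, in some lists without any, up to 3 with the smallest p. Clone-like symbols were counted, not named. The mouse numbers name different mice in the 2 genotypes, so no block was used for them. Same-numbered mice had correlations of deviations of 0.238, −0.200 and −0.0977. The fit also took the 2 arrays of a mouse as independent. With the mouse as a random block their correlation was 0.218, and the same 15 genes were called at rest. Alternatives were 11 other settings and leaving out each of the 24 arrays. The comparison, its lists and its tests were chosen with earlier results of these data known. Python 3.11.15 and matplotlib 3.10.9 made the figures.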

Additional observations from a re-analysis of the deposited data

Results flagged for a closer look

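The difference between SapKO and WT and that between ElkSapKO and ElkKO, both untreated, differed by the interaction test in limma for 3 of the 15 genes. The values, as the first difference less the second, were 3.34 for Gcsh, 2.28 for Rbp7 and 1.33 for Nmnat1 on the log2 scale. Gcsh differed between SapKO and WT in the opposite direction to ElkSapKO and ElkKO, while Rbp7 and Nmnat1 differed in the same direction by less. The 15 genes were chosen with the same untreated SapKO and WT arrays, so nothing is read from the count of 3. The ElkKO and ElkSapKO arrays also differed in quality from those of WT and SapKO, and the part of this was not tested.

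Probe sets without a single gene symbol were not among the genes tested. When each of the 45037 probe sets was tested on its own, 15 of them were called between untreated SapKO and WT, 13 higher and 2 lower in SapKO. Of these, 10 had no symbol and 5 had several. Among probe sets of genes that were not called, 5 others passed, those of Cpm (1.17), Mapkap1 (−2.76), Pisd-ps3 (1.05), Ube2t (−1.16) and Zdhhc3 (−0.79). The brightest Mapkap1 probe set differed by 0.02.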

How the results depend on the processing

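Elk4, Tmem181a, Insl5, Gcsh, Rbp7 and Nmnat1 kept their calls in all settings in which they were tested, and none of the 15 called genes turned its direction. Tmem181a, Insl5, Gcsh and Rbp7 are among 7 of the 15 genes with only 1 probe set. The mean of all probe sets of a gene left their values unchanged. With arrays left out the direction was fixed in advance, since the groups of all 15 were separate. The number of called genes, 15 (11 higher, 4 lower), was 35 (20 and 15) with only the 6 arrays, 33 (21 and 12) with the 12 WT and SapKO arrays and 42 (25 and 17) with array weights. All of these held the 15 genes. With every probe set tested on its own 40 probe sets were called (30 and 10). The fit with the mouse number as a replicate block gave 26 genes (17 and 9), 14 of them among the 15, although the numbers do not pair the mice. Leaving out 1 array at a time gave 8 to 17 called genes, 6 to 12 higher and 1 to 5 lower. The fewest, 8, came without WT mouse 2, WT mouse 3 or SapKO mouse 3. Nnt, Usb1 and Cmc2 lost their calls without any 1 of the 6 arrays, and in those 6 fits the Elk4 difference was between −3.53 and −3.31. With the mean of all probe sets of a gene Elk4 differed by −1.36 and was still called, while Ncoa7 (−0.63), Nnt (−0.56), Slc41a1 (adjusted p = 0.174) and Ctse (1.36) were not. Tmem267 lost its call with arrays centred on their median (adjusted p = 0.0773). Usb1 lost it there, with the replicate block, with dap as a fixed term and with an intensity trend and robust prior (adjusted p up to 0.253).

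Of the 15 genes, 8 to 15 were called after anti-CD3 and 5 to 9 in ElkSapKO minus ElkKO when 1 array was left out, and 10 in the latter with array weights. The changed difference was called for 1 gene, Ncoa7, with the 12 arrays, with array weights and in the highest of the leave-one-out fits (0 to 1). SapKO minus ElkKO called 14 with array weights and 7 to 10 with 1 array left out. Within 25 genes of Elk4, 4 were called with array weights, 0 with the mean of probe sets and 1 to 2 with 1 array left out. Called list members were 4 with the 6 arrays, with array weights and with the replicate block, 1 with genes of a mean of at least 6, and 1 to 2 with 1 array left out. Values that changed sign were those of genes near 0: with 1 array left out Elk1 ran from −0.056 (without WT mouse 3) to 0.21, and Elk3 from −0.094 to 0.072, above 0 without WT mouse 1, WT mouse 3 or SapKO mouse 2. For these results the cause was not tested. Genes near the Xist level are limited by background.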

Other observations

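The spread between mice was compared over the 15 genes. These were called for a difference between untreated WT and SapKO, and all had separate groups there, so a wide spread there is less likely by choice. The range between the mean values of the 3 mice had a median of 0.60 over the 15 genes in ElkSapKO, against 0.30 in WT, 0.22 in SapKO and 0.25 in ElkKO. In the anti-CD3 arrays alone, an alternative added after the values were seen that leaves out the untreated array of ElkSapKO mouse 2, the median range was 0.65 in ElkSapKO, 0.46 in WT, 0.24 in SapKO and 0.43 in ElkKO. Within ElkSapKO both arrays of mouse 2 had the highest Actb excess of 3′ over 5′ signal (0.808 untreated and 1.05 after anti-CD3), and its part in the spread was not tested. The pattern repeated in the 2 arrays of a mouse for some genes. Gcsh was at 8.39, 8.64 and 7.22 in untreated cells of ElkSapKO mice 1 to 3 and at 8.44, 8.94 and 7.31 in their anti-CD3 cells. Cmc2 was at 9.50, 10.39 and 9.04 and then at 9.34, 10.13 and 9.18, and Insl5 at 10.59, 10.87 and 9.90 and then at 10.47, 10.79 and 9.91. Nnt was at 8.57, 8.86 and 9.17 and then at 8.42, 8.64 and 9.34. In each of these 4 genes the mice kept their order between the 2 arrays. In others of the 15, among them Elk4, Ncoa7 and Nmnat1, ElkSapKO mice did not keep it. SapKO mice also kept their order in some genes, among them Nnt, Insl5 and Nmnat1. For 9 of the 15 genes the range between ElkSapKO mice was wider than the largest gap between the 2 arrays of a mouse, against 6 in WT, 8 in SapKO and 5 in ElkKO.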
